A study of Oncorhynchus mykiss with 69 samples.

Results

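The genes foxo1a, lpin1 and pparab are 3 regulators of energy metabolism, followed here in rainbow trout cells exposed to methylmercury or fluoxetine. They were picked by gene identifier from the deposited tables, with earlier results of these data in view. All 3 are among the 7533 genes present in every fold-change table, of 35945 genes present in any. The low benchmark concentration of foxo1a in the gill line was among the values known when the genes were chosen, and which values led to lpin1 and pparab is not recorded. Methylmercury values of lpin1 and pparab, and of foxo1a in gill, are therefore given as descriptions. The adjusted p-values of the authors' deposited tables stand beside them only for the record, and nothing rests on them. Whether the gut and liver values of foxo1a were also known at the choice is not recorded. The p-values of foxo1a in gut, in liver and between these lines carry that limit.

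FoxO1 is a forkhead transcription factor that insulin signalling keeps out of the nucleus through Akt phosphorylation. When insulin signalling is low it enters the nucleus and switches on genes of glucose production, atrophy and cell cycle arrest. Lipin 1 is the phosphatidate phosphatase that makes diacylglycerol for triglyceride and phospholipid synthesis, and in mammals it also acts in the nucleus as a coactivator of PPAR alpha. PPAR alpha, of which pparab encodes 1 of the trout copies, is a nuclear receptor for fatty acids that in mammalian liver turns on fatty acid oxidation.

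Methylmercury is an organic mercury compound, and fluoxetine is an antidepressant that blocks serotonin uptake. The gill line is RTgill-W1, the liver line RTL-W1 and the intestinal line RTgutGC (spelled RTgutCC in the labels), all kept in L-15 medium with serum at 19 °C. Each line is a single established culture, so p-values measure the spread between dishes of that line and nothing in the labels tells whether dishes were set up independently. Cells were exposed for 24 h. Methylmercury was given at 0.25, 2.5, 25, 125 and 250 on the scale of the tables, with no unit stated. The sample titles give 0.001, 0.01, 0.1, 0.5 and 1 for the same groups, also without a unit. The values used here are 250 times larger than those of the titles. Each line had 2 libraries at each concentration and 1 methylmercury control pair, shared by all 5 concentrations. Fluoxetine was given at 1.6, 4, 8, 20, 40, 100, 200, 500 and 1000 ppb with 1 library each, beside 2 controls per line, labelled ctrl and H2O.

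Depth in the tabulated genes was an estimated 7.74 to 11.5 M reads per methylmercury library, from pair means, and 1.83 to 7.67 M per fluoxetine library. Levels below are in RPM, the estimated reads of a gene per M tabulated reads of the same library, recovered from the deposited log2 values, and for methylmercury each is the geometric mean of a pair whose single libraries could not be recovered. As deposited, the log2 change of the median gene at methylmercury 250 against control was -0.89 in gill, -0.78 in liver and -1.01 in gut, so log2 changes are given relative to the median gene of the same line and concentration, and as deposited where the sign differs. In the methylmercury controls 1 of 3 tabulated hepatocyte markers exceeded 1 RPM in liver (tf, transferrin, at 164), and 1 of 2 tabulated enterocyte markers did so in gut (anpepa, at 4.39). These markers were not particular to their line: the hepatocyte gene fga stood at 39.95 in gut, and the enterocyte genes anpepa and vil1 at 3.06 and 2.07 in liver, with anpepa at 3.58 in gill. Epithelial junction genes tjp1b and cldn1 stood at 30.4 and 18.8 in gill and the keratin krt18b at 3630 in liver, while all 3 epithelial markers tabulated in gut were under 1 RPM. Collagen genes were high in every line, with mesenchymal markers summing to 8733 RPM in gill, 48646 in liver and 4277 in gut controls, while leukocyte markers summed to at most 0.679.

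With methylmercury foxo1a rose in the gut line and, relative to the median gene, in the liver line, and the gill libraries showed a step between the control pair and all exposed pairs. In the gut line foxo1a stood at 4.89 RPM in the control, 3.80 at 0.25, 2.81 at 2.5, 5.89 at 25, 10.2 at 125 and 13.9 at 250. The 3 lowest values were those of the control and the lowest concentrations, and the highest was at the top concentration. The log2 change relative to the median gene was 2.76 ± 0.29 (SE, n = 2 libraries each) at 250 and 1.61 ± 0.29 at 125. Both passed a moderated test on the recovered variance over all genes of the table (limma-type, adjusted p = 0.000255 at 250 and 0.00968 at 125), which called 47.8% of gut genes at 250 and 16.1% at 125. At 0.25, 2.5 and 25 it did not pass, with changes of -0.35, -0.78 and 0.42, and the test called 0.0549%, 0.0503% and 0.988% of genes there. On the deposited scale the pairs at 125 and 250 could not overlap with the control from above nor the pair at 2.5 from below, since the residual variance bounds the gap within a pair. Control and exposed pairs were apart in either direction in 2.58% of gut genes at 2.5, 53.8% at 125 and 66.2% at 250.

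In the liver line foxo1a stood at 7.55 RPM in the control, 6.25 at 0.25, 8.46 at 2.5, 6.99 at 25, 9.04 at 125 and 10.2 at 250. Groups next to each other in level did not differ beyond their spread, and the pair at 250 may have overlapped with the control. The change relative to the median gene was 1.30 ± 0.23 at 250 (limma-type moderated test, adjusted p = 0.00482), where 29% of liver genes were called, and 0.71 ± 0.23 at 125 (adjusted p = 0.101 by the same test), where 10.8% were. At 0.25, 2.5 and 25 it was -0.27, 0.16 and -0.03 and did not pass, with 0.0345%, 0.0431% and 0.069% of genes called. As deposited the change at 250 was 0.53, with adjusted p = 0.0866 by the same moderated test, and foxo1a was not called by the authors' F-test over all concentrations (adjusted p = 0.123 in the authors' deposited table). With the F-test computed on changes relative to the median gene it was called (adjusted p = 0.0137), as were 19.1% of liver genes.

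The change of foxo1a was larger in the gut line than in the liver line. At 250 the change of foxo1a in gut minus that in liver was 1.46 ± 0.37 (log2, SE) relative to the median gene, from changes of 2.76 and 1.30 (limma-type moderated test, adjusted p = 0.0119 over 16115 shared genes, of which 21% were called). At 125 the difference was 0.91 ± 0.37 and did not pass (adjusted p = 0.271).

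In the gill line foxo1a was scarce, at 0.532 RPM in the control pair (5.31 estimated reads per library), 1.59 at 0.25, 1.99 at 2.5, 1.85 at 25, 1.99 at 125 and 2.61 at 250. The control pair was below every exposed pair and could not overlap with any of them, whereas neighbouring exposed groups did not differ beyond their spread. All exposed pairs lay above the control without overlap in 0.182% of gill genes, and control and exposed pairs were apart in either direction in 2.41% at 0.25 and 61.2% at 250; foxo1a was chosen with its gill values known, so nothing is read from these shares. The change was 1.51 ± 0.28 at 0.25, 1.81 at 2.5, 1.82 at 25, 2.42 at 125 and 3.33 at 250, relative to the median gene (adjusted p of the F-test 0.00195 in the authors' deposited table). Of all gill genes, 56.8% were called by that F-test, 45.8% of liver genes and 63.4% of gut genes. Set against the pair at 0.25 in place of the control, a comparison added after the data were seen, the change at 250 was 1.83 relative to the median gene and 0.89 as deposited. The unexposed gill libraries of the fluoxetine experiment, normalised separately, held 4.90 RPM of foxo1a, and the part that the methylmercury control pair has in the gill values was not tested.

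**Figure D1:**
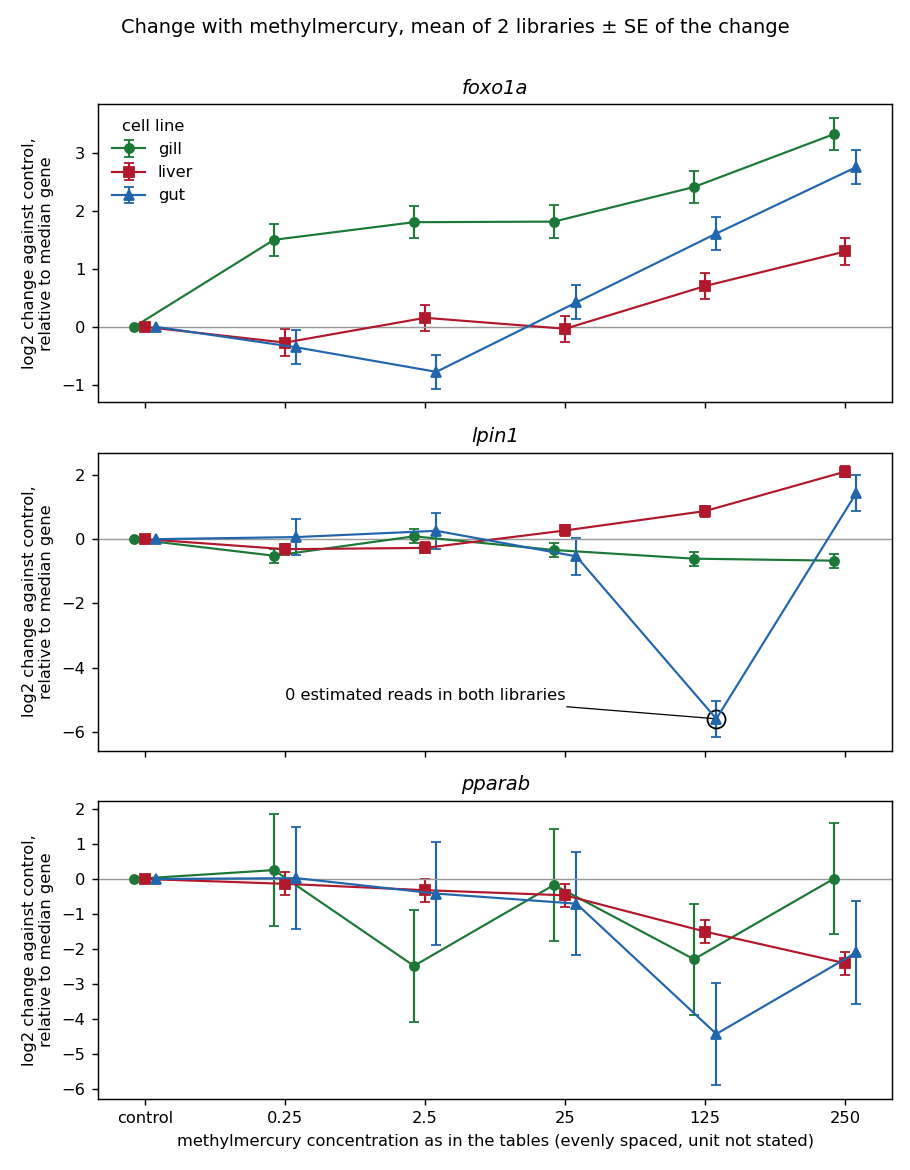
Log2 change of each gene against its control, relative to the median gene, at 5 methylmercury concentrations (evenly spaced on the axis) in gill (circles), liver (squares) and gut (triangles), as means of 2 libraries with the SE of the change. foxo1a ended at 3.33 in gill, 2.76 in gut and 1.30 in liver at 250, lpin1 ended above 0 in liver and gut and below 0 in gill, and the circled point marks the fitted value of the gut pair at 125 with 0 estimated lpin1 reads, which is no measured size.

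At 250 lpin1 was above its control in the liver line and below it in the gill line. In the liver line it stood at 8.36 RPM in the control, 6.72 at 0.25, 6.94 at 2.5, 9.54 at 25, 11.2 at 125 and 19.6 at 250. The pair at 250 was the highest and could not overlap with the control, as held for 55.1% of liver genes between those groups. The change at 250 was 2.10 ± 0.17 relative to the median gene and 1.32 as deposited (adjusted p of the F-test 0.00199 in the authors' deposited table).

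In the gill line lpin1 stood at 2.70 RPM in the control, 1.86 at 0.25, 2.87 at 2.5, 1.96 at 25, 1.14 at 125 and 0.74 at 250. The pairs at 125 and 250 were the lowest, and neither could overlap with the control on the deposited scale, as held for 48.2% of gill genes at 125 and 61.2% at 250. The change at 250 was -0.67 ± 0.21 relative to the median gene and -1.56 as deposited (adjusted p of the F-test 0.00189 in the authors' deposited table). When the same F-test was computed on changes relative to the median gene its adjusted p was 0.106, and 27.8% of gill genes and 40.5% of gut genes were called on that scale. The median gene itself changed by -0.89 at 250 in gill.

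In the gut line lpin1 stood at 3.74 RPM in the control, 3.90 at 0.25, 4.45 at 2.5 and 2.29 at 25, was at 0 estimated reads in both libraries at 125, and stood at 4.22 at 250. The pair at 125 was far below all others, and the 5 remaining groups did not differ from their neighbours beyond the spread. With 3 reads per library as the most that a count of 0 allows, lpin1 at 125 was at least 10.1-fold lower than in the control, on the deposited scale and for counting error only. Only 65 of 14301 gut genes with a median of at least 20 estimated reads had a group at 0 reads (0.455%). At 250 the change was 1.44 ± 0.57 relative to the median gene and 0.42 as deposited. The F-test of the authors' deposited table gave an adjusted p of 0.000203, which counts the pair at 125.

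pparab fell with concentration in the liver libraries, was lowest at 125 and 250 in gut with a wide spread, and went up and down in gill. In the liver line it stood at 8.76 RPM in the control, 7.95 at 0.25, 7.03 at 2.5, 5.98 at 25, 2.22 at 125 and 0.858 at 250. Each step up in concentration had a lower value than the one before, and the steps to 125 and to 250 exceeded the spread. The pairs at 125 and 250 could not overlap with the control, as held for 38% and 55.1% of liver genes. The change at 250 was -2.41 ± 0.33 relative to the median gene and -3.19 as deposited, and at 125 it was -1.50 relative to the median gene (adjusted p of the F-test 0.00162 in the authors' deposited table).

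In the gill line pparab had 28.0 estimated reads per library in the control, 30.4 at 0.25, 4 at 2.5, 22.2 at 25, 3.52 at 125 and 14.5 at 250. Low and high pairs alternated without regard to concentration, and the SE of a change was 1.59. No neighbouring pair of groups differed beyond the spread (adjusted p of the F-test 0.431 in the authors' deposited table). In the gut line the estimated reads were 29.0 in the control, 29.9 at 0.25, 23.0 at 2.5, 16.1 at 25, 0.617 at 125 and 2.54 at 250. The groups at 125 and 250 were lowest, but the SE was 1.47 and the adjusted p of the F-test was 0.0781 in the authors' deposited table. On the deposited scale the pair at 125 could not overlap with the control, as held for 53.8% of gut genes, whereas the pair at 250 may have overlapped.

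At 125 in the gut line both lpin1 and pparab were at or near 0 reads while foxo1a held 95.5 estimated reads per library. The 2 low genes shared a pair of libraries in which foxo1a was covered. In liver at the same concentration lpin1 had 109 and pparab 21.6 estimated reads.

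In the controls foxo1a and lpin1 were highest in liver. foxo1a had 7.55 RPM in liver, 4.89 in gut and 0.532 in gill in the methylmercury controls, and 21.0, 9.37 and 4.90 in those lines in the fluoxetine controls. lpin1 had 8.36 in liver, 3.74 in gut and 2.70 in gill in the methylmercury controls, and 24.8 in liver, 8.31 in gill and 7.85 in gut in the fluoxetine controls. Liver led in both experiments, whereas the order of gill and gut changed for lpin1. The tables were normalised separately, so these are side by side values and no test was made.

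Fluoxetine gave no called change in any of the 3 genes. No gene passed the F-test of the authors' deposited tables in gill, liver or gut (0 calls each), against 2528 gill, 2454 liver and 2253 gut genes with an unadjusted p under 0.05. A limma trend of the library levels on log10 concentration, fitted here, also called 0 genes in each line, with 1174, 1470 and 1480 genes under an unadjusted 0.05. The fitted change over the whole range is given below as log2 relative to the median gene.

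In gill, foxo1a ranged between 5.18 and 10.2 RPM over the 9 fluoxetine libraries, with a median of 7.40, against 4.90 in the controls. Of the 9 libraries 6 lay above the higher control on the deposited scale, with the highest value at 40 ppb. The fitted trend was 0.66 ± 0.27 (limma, unadjusted p = 0.0356, adjusted p = 0.927). In liver foxo1a ranged between 13.98 and 27.3 with a median of 24.0, against 21.0 in the controls, and the trend was -0.06 ± 0.26 (limma, adjusted p = 0.986). In gut it ranged between 9.39 and 14.99 with a median of 13.01, against 9.37 in the controls, with 7 of 9 libraries above the higher control and a trend of 0.24 ± 0.23 (limma, adjusted p = 0.884).

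In liver, lpin1 ranged between 26.2 and 36.2 RPM over the fluoxetine libraries, with a median of 29.8, against 24.8 in the controls. All 9 libraries lay above both controls, by 0.09 to 0.52 (log2, as deposited) against the control mean, and the same held for 1.42% of liver genes. The trend of 0.39 ± 0.13 had an unadjusted p of 0.0163 and did not pass over all genes (limma, adjusted p = 0.696). In gill lpin1 ranged between 6.50 and 13.3 with a trend of 0.38 ± 0.28 (limma, adjusted p = 0.94), and in gut between 5.85 and 10.99 with a trend of -0.0019 ± 0.25 (limma, adjusted p = 0.999).

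pparab dropped out of single fluoxetine libraries. In liver the library at 8 ppb had 3.49 estimated reads, while the other 8 fluoxetine libraries had 69.0 or more, and the controls lay 4.23 log2 units apart, at 9.19 and 4.96. In gut the libraries at 100 and 200 ppb had 0 estimated reads and the other 7 had 32.0 or more, and the controls lay at 7.94 and 3.42. In gill no such library appeared, as pparab ranged between 7.87 and 14.6 RPM, and the controls differed by 0.04. Of 14012 gut genes with a median of at least 30 estimated reads, 201 (1.43%) had a fluoxetine library at 0 reads. With a control at the low level, the fold changes of pparab against the control mean in liver and gut rest on that control. The trends were 2.31 ± 1.53 in liver (limma, adjusted p = 0.868), -1.17 ± 2.31 in gut (limma, adjusted p = 0.955) and 0.01 ± 0.22 in gill (limma, adjusted p = 0.999).

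**Figure D2:**
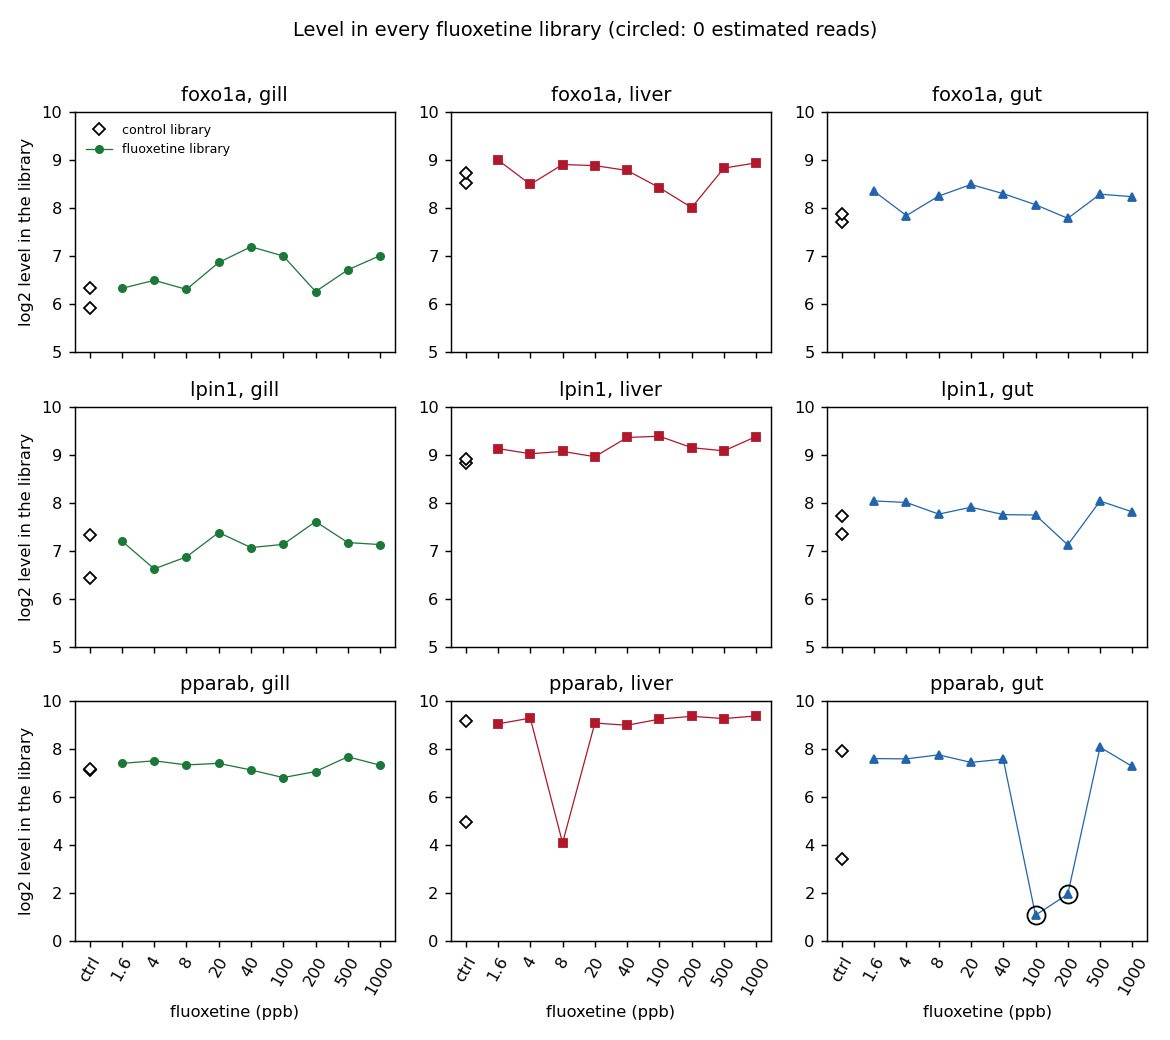
Log2 level of each gene (rows) in every fluoxetine library of each line (columns), with both control libraries as open diamonds at the left and concentrations in ppb, evenly spaced. foxo1a and lpin1 stayed within a narrow band in each line, while pparab fell far below it in liver at 8 ppb and in gut at 100 and 200 ppb (circled, 0 estimated reads), and in 1 control of each of these lines.

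Salmonids carry many duplicated genes from an ancestral genome duplication, and tools that share reads among near-identical copies can move them between copies. By symbol the annotation used here (USDA_OmykA_1.1) holds 1 further copy of the receptor, pparaa, which is in none of the 6 fold-change tables, and no second foxo1 or lipin gene. Copies listed only by locus number were not examined, and whether reads of pparab or lpin1 went to such a copy was not tested. The values of pparab in gill and gut, and of lpin1 in gut at 125, are uncertain in this respect.

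Genes around foxo1a in insulin signalling were called in both directions with methylmercury, by the authors' F-test over all concentrations and with directions read at 250. The share called was 66.7% in gill, 50% in liver and 86.7% in gut, against 56.8%, 45.8% and 63.4% of all genes. Of 15 tabulated genes of the insulin and FoxO signalling list in gill, 10 were called by the authors' F-test, 4 higher and 6 lower than the median gene, where 19.2% and 37.6% of all gill genes were called higher and lower. In liver 6 of 12 were called, 2 higher and 4 lower, against 12.8% and 32.9% of all liver genes. In gut 13 of 15 were called, 6 higher and 7 lower, against 22.5% and 40.8% of all gut genes. As deposited, 5 of the gut calls were higher than control and 8 lower, where 52.2% of all gut genes were called and lower. With the F-test computed on changes relative to the median gene, the calls were 6 higher and 1 lower in gill, 3 higher and 1 lower in liver and 6 higher and 3 lower in gut, with 13.6% and 14.2%, 12.2% and 6.89%, and 18.4% and 22% of all genes called higher and lower. The list's median change was -0.11 for gill, -0.20 for liver and 0.32 for gut (-0.69 on the deposited scale), where that of all genes is 0 by construction. The list includes foxo1a itself.

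The other FoxO factor with a symbol, foxo3b, was called in all 3 lines. Its level at 250 was 11.8 RPM in gill, 12.03 in liver and 20.7 in gut, against 1.85, 4.61 and 0.875 in the controls of those lines. Relative to the median gene foxo3b rose by 3.79 ± 0.38 in gill, 2.25 ± 0.36 in liver and 5.73 ± 0.53 in gut. irs1, an adaptor that carries the signal away from the insulin receptor, fell to 1.41 RPM in gill, 2.19 in liver and 1.03 in gut at 250, against 5.56, 9.11 and 5.97 in the controls. Relative to the median gene its change was -0.81 ± 0.34 in gill, -1.16 ± 0.15 in liver and -1.20 ± 0.29 in gut, and on that scale the F-test did not call it in gill (adjusted p = 0.253). Both named genes were called in all 3 lines by the authors' F-test on the deposited scale.

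FoxO target genes moved both ways. Of 17 tabulated targets in gill 12 were called, 4 higher and 8 lower than the median gene, in liver 13 of 21 (5 higher, 8 lower) and in gut 13 of 18 (7 higher, 6 lower), beside 56.8%, 45.8% and 63.4% of all genes. Higher calls made up 19.2%, 12.8% and 22.5% of all gill, liver and gut genes and lower calls 37.6%, 32.9% and 40.8%. As deposited, 2 of the gill calls were higher than control and 10 lower, and 6 of the gut calls were higher and 7 lower. Of all gill and gut genes 46.5% and 52.2% were called and lower on the deposited scale. On changes relative to the median gene the calls were 3 higher and 2 lower in gill, 5 higher and 1 lower in liver and 7 higher and 4 lower in gut, where 13.6%, 12.2% and 18.4% of all genes were called higher and 14.2%, 6.89% and 22% lower. The list's median change was -0.26 for gill, -0.05 for liver and 0.98 for gut (-0.04 on the deposited scale). The insulin receptor and adaptor genes insrb and irs2a stand in both this list and the signalling list.

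fbxo32, the ubiquitin ligase atrogin-1 of mammalian muscle atrophy, had 17.9 RPM in gill at 250, 4.48 in liver and 12.3 in gut, against 1.74, 2.14 and 3.93 in the controls. Its change relative to the median gene was 4.47 ± 0.31 in gill, 1.92 ± 0.25 in liver and 2.89 ± 0.37 in gut. bcl6aa, a transcriptional repressor, rose by 2.99 ± 0.21 in gill, 2.90 ± 0.24 in liver and 3.39 ± 0.20 in gut. Both were called in all 3 lines on either scale.

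pck1 and igfbp1a, named here after their values were seen and not tabulated in gill, are FoxO targets of glucose production and growth factor binding. pck1, the cytosolic enzyme that starts gluconeogenesis, had 9.59 RPM in gut and 4.57 in liver at 250, against 0.414 and 0.411 in the controls, and its change was 5.60 ± 0.38 in gut and 4.19 ± 0.58 in liver (called in both). The pck1 controls held only 3.21 estimated reads per library in gut and 3.83 in liver, so the size of its change is uncertain. igfbp1a, which binds insulin-like growth factors in blood, had 626 RPM in gut at 250 against 14.4 in the control, a change of 6.70 ± 0.19. In liver igfbp1a had 18.2 RPM at 250 against 0.683 RPM in the control, with a log2 difference of 5.50 ± 1.51, and was not called (adjusted p 0.0792 in the authors' deposited table). g6pc3, a glucose-6-phosphatase in the same list, was lower as deposited, at -1.28 in gill, -0.83 in liver and -1.49 in gut (called by the authors' F-test in each). Relative to the median gene g6pc3 stood at -0.39, -0.05 and -0.48. On that scale the F-test called it in gut (adjusted p = 0.0209) but not in gill (adjusted p = 0.147) or liver (adjusted p = 0.954). The cell cycle inhibitor cdkn1a went different ways, at 1.53 ± 0.22 in liver, -0.37 ± 0.09 in gill and -2.17 ± 0.11 in gut, called by the authors' F-test in each, though in gill not relative to the median gene (adjusted p = 0.0713), and the difference between lines was not tested. pdk4, which shuts pyruvate out of the mitochondrial oxidation path and is a target of both FoxO and PPAR alpha in mammals, changed by 0.30 in gill (-0.59 as deposited), -0.49 in liver and -0.86 in gut.

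**Figure D3:**
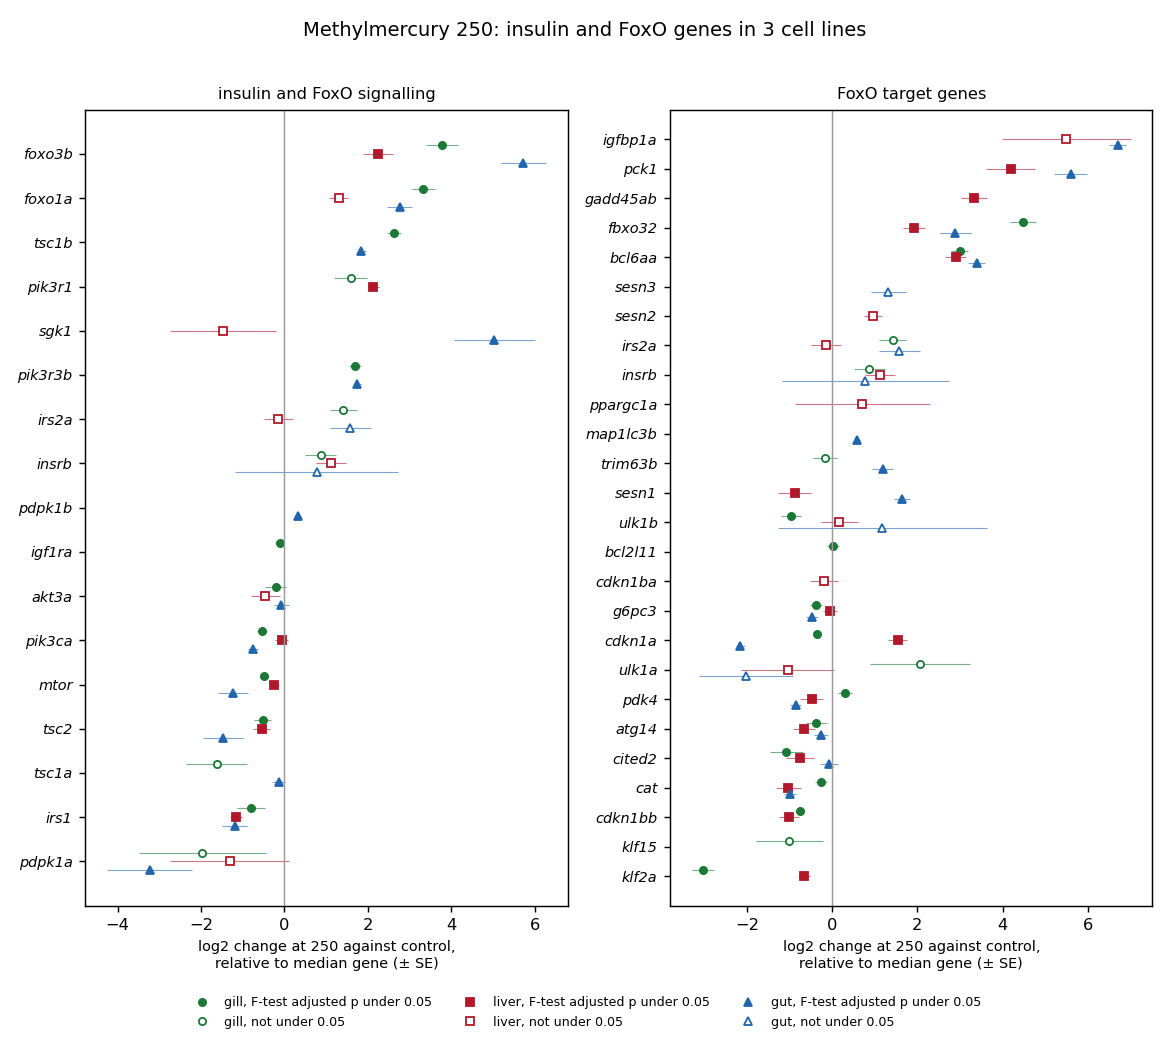
Log2 change at methylmercury 250 against control, relative to the median gene, with its SE, for each tabulated gene of the insulin and FoxO signalling list (left) and of the FoxO target list (right) in gill (circles), liver (squares) and gut (triangles); filled symbols have an adjusted p under 0.05 in the authors' F-test. foxo3b, fbxo32 and bcl6aa lie right of 0 and filled in all 3 lines, and foxo1a lies right of 0 with an open symbol in liver.

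Around lpin1, the genes of glycerolipid synthesis that were called relative to the median gene were higher in liver and gut. Of 10 tabulated genes in gill 7 were called, 3 higher and 4 lower than the median gene, in liver 5 of 9 (3 higher, 2 lower) and in gut 6 of 8 (4 higher, 2 lower), beside 56.8%, 45.8% and 63.4% of all genes. As deposited, 1 of the gill calls was higher than control and 6 lower, and 3 of the gut calls were higher and 3 lower. Of all gill and gut genes 46.5% and 52.2% were called and lower on the deposited scale. On changes relative to the median gene 1 was higher and 1 lower in gill, while 4 were higher and 0 lower in both liver and gut, where 12.2% and 18.4% of all genes were called higher and 6.89% and 22% lower (13.6% and 14.2% in gill). lpin1 is 1 of the 4 in each line, and its call in gut counts the pair at 125 with 0 reads. The list's median change was 0.18 for gill, 1.37 for liver and 0.75 for gut (-0.71, 0.60 and -0.27 on the deposited scale). agpat4, an acyltransferase that makes phosphatidic acid, the substrate of lipin 1, was called in all 3 lines. It had 82.7 RPM in gill at 250, 11.2 in liver and 33.4 in gut, against 35.1, 6.87 and 4.12 in the controls. Its change was 2.38 ± 0.11 in gill, 1.58 ± 0.18 in liver and 4.27 ± 0.29 in gut. The other example by the same rule was lpin1 itself.

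The PPAR receptor list, which holds pparab itself, is short and gave 2 calls in gill, 2 in liver and 1 in gut relative to the median gene. In gill 5 of 8 were called, 4 higher and 1 lower than the median gene, in liver 4 of 5 (1 higher, 3 lower) and in gut 4 of 6 (0 higher, 4 lower), where 56.8%, 45.8% and 63.4% of all gill, liver and gut genes were called. As deposited, 2 of the gill calls were higher than control and 3 lower, where 46.5% of all gill genes were called and lower. On changes relative to the median gene the calls became 2 higher and 0 lower in gill, 1 higher and 1 lower in liver, the lower one being pparab, and 0 higher and 1 lower in gut. On that scale 27.8%, 19.1% and 40.5% of all gill, liver and gut genes were called. The median change of the list was 0.20 in gill (-0.69 as deposited), -0.22 in liver and -0.33 in gut. The examples called in all 3 lines were the orphan receptor nr2f2 (0.02 in gill, -0.30 in liver and -1.06 in gut) and the coactivator ncoa1 (0.03, -0.22 and -0.14), where the gill values as deposited were -0.88 and -0.86. pparg, the relative of pparab that drives fat storage, and named here after its values were seen, had 7.29 RPM in liver and 26.5 in gill at 250, against 4.92 and 20.6 in the controls. Its change was 1.44 ± 0.19 in liver, where that of pparab was -2.41, and 1.51 ± 0.14 in gill. In gut pparg stood at 1.08 ± 0.45 and was not called.

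Genes that PPAR alpha controls in mammals were mostly lower with methylmercury 250 in all 3 lines, more so on the deposited scale. In gill 19 of 22 were called, 4 higher and 15 lower than the median gene, in liver 17 of 22 (3 higher, 14 lower) and in gut 17 of 20 (3 higher, 14 lower). Of all gill, liver and gut genes 56.8%, 45.8% and 63.4% were called, with 19.2%, 12.8% and 22.5% higher and 37.6%, 32.9% and 40.8% lower. On the deposited scale every called gene of the list was lower than control in its line, where 46.5%, 38.2% and 52.2% of all gill, liver and gut genes were called and lower. On changes relative to the median gene, 7 of 22 were lower and 0 higher in gill, 3 of 22 lower and 0 higher in liver, and 9 of 20 lower and 2 higher in gut. Of all gill, liver and gut genes 14.2%, 6.89% and 22% were called lower on that scale and 13.6%, 12.2% and 18.4% higher. The list's median change was -0.23 in gill, -0.46 in liver and -0.30 in gut.

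acox3, a peroxisomal acyl-CoA oxidase, fell to 16.2 RPM in gill, 9.85 in liver and 8.41 in gut at 250, against 98.1, 37.6 and 71.8 in the controls. Its change relative to the median gene was -1.45 ± 0.11 in gill, -1.05 ± 0.12 in liver and -1.82 ± 0.12 in gut. acaa2, the thiolase that ends each round of mitochondrial fatty acid oxidation, changed by -0.96 ± 0.13 in gill, -0.77 ± 0.13 in liver and -1.56 ± 0.13 in gut. Both were called in all 3 lines on either scale. angptl4, an inhibitor of lipoprotein lipase and a strong PPAR target in mammals, was not called in any line; its values at 250 were 2.03 RPM in gill, 0.809 in liver and 0.472 in gut, against 3.76, 0.263 and 0.0798 in the controls. By the authors' F-test the list had 15 lower calls in gill, where pparab was not called, and 14 in liver, where it was. On changes relative to the median gene the lower calls were 7 in gill and 3 in liver. How the list relates to pparab was not tested.

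Some markers of other cell types also differed at 250. Mesenchymal markers summed to 3182 RPM in gill, 25841 in liver and 6674 in gut, against 8733, 48646 and 4277 in the controls. In liver the sum rests on col1a2 and col1a1b, which were not called (0.03 and -0.14 relative to the median gene, adjusted p = 0.0885 and 0.0901 in the authors' deposited table), whereas in gut 4 of 5 mesenchymal markers were called, all higher. Of all gut genes 63.4% were called by the authors' F-test, and 22.5% were called and higher than the median gene. The hepatocyte list summed to 40.8 in liver and 80.5 in gut, against 164.7 and 40.9 in the controls, and the epithelial list to 1606 in liver, against 3676 in the control. The epithelial sum rests on krt18b, which stood at -0.36 relative to the median gene. On that scale the F-test did not call krt18b in liver (adjusted p = 0.625). Fewer cells of a kind and less RNA per cell cannot be told apart in such bulk samples, and the part of these shifts in the gene lists was not tested.

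**Figure D4:**
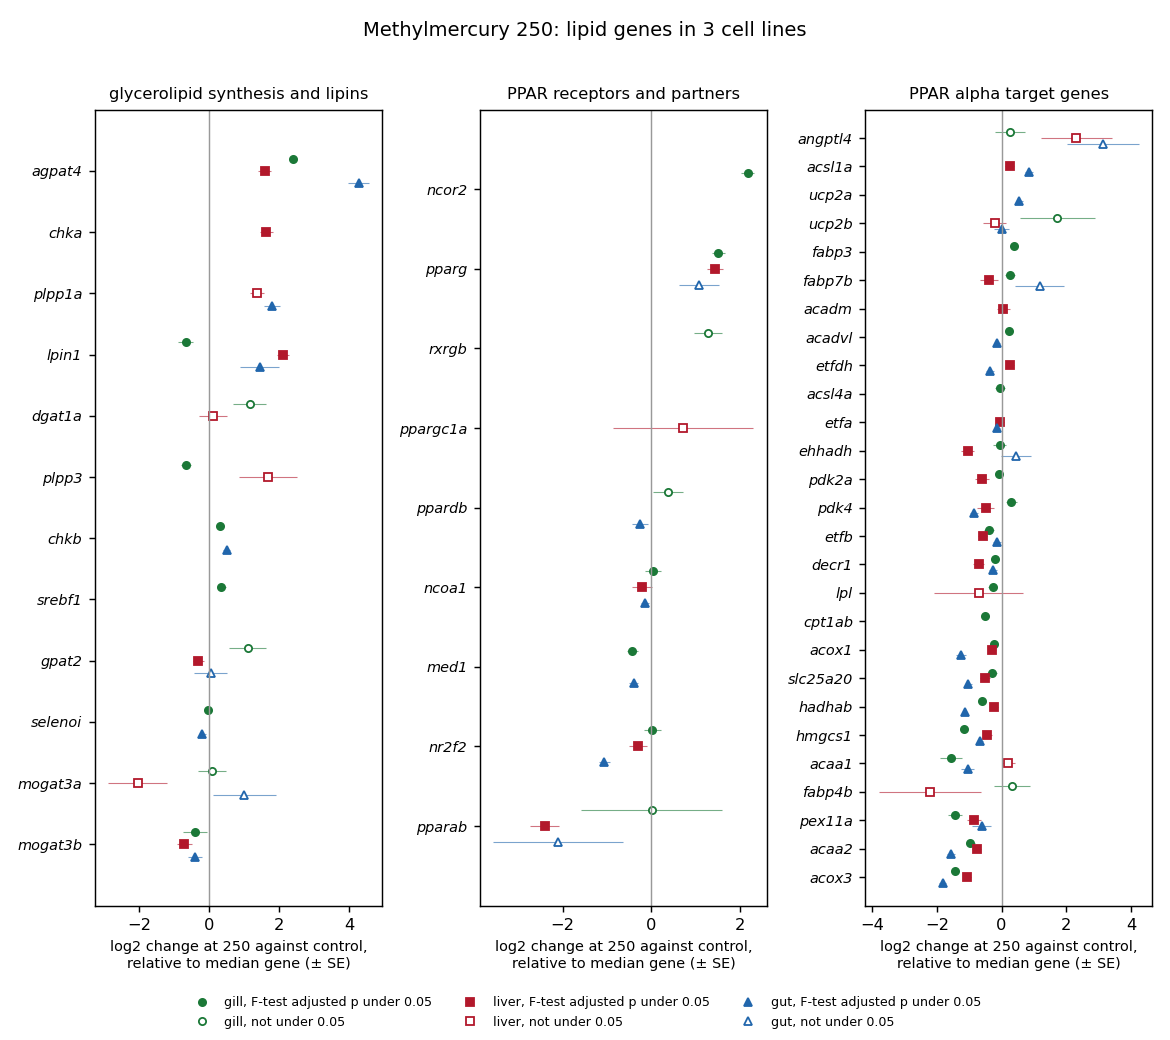
Log2 change at methylmercury 250 against control, relative to the median gene, with its SE, for each tabulated gene of the glycerolipid list (left), the PPAR receptor list (middle) and the PPAR alpha target list (right); symbols as gill circles, liver squares and gut triangles, filled where the authors' F-test had an adjusted p under 0.05. agpat4 lies right of 0 and acox3 and acaa2 left of 0 in all 3 lines, and lpin1 lies left of 0 only in gill.

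A benchmark concentration is read off a curve fitted to the levels of a gene, where the curve first departs from its fitted control level by a set amount. Here that amount was the residual SD of the gene's own fit, so it differed between genes (log2 0.34 for foxo1a in gill, 0.77 for lpin1 in gut). The authors' deposited tables hold 5 such values for the 3 genes, all for methylmercury, and none of the 3 genes in the fluoxetine tables. foxo1a in gill had the benchmark 0.0316 (bounds 0.0172 and 0.0484) in the authors' deposited table, at rank 5 from the lowest of 4821 passing genes and lowest of the 1273 among them with a gene name. That is below 0.25, the lowest concentration tested, so it lies between the control pair and the first exposed pair, and 1 of the table's own pass marks (ld.pass) reads false for foxo1a as for 6 passing gill genes in all. In gut foxo1a had 23.8 (10.6 to 39.3) in the authors' deposited table, at rank 2816 of 6224. The genes just below and above foxo1a in the gill list, LOC110500614 and LOC110526132, had 0.0285 and 0.0484 in the authors' deposited table.

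lpin1 had the benchmark 41.7 (14.999 to 67.6) in gill with a falling curve, at rank 3662 of 4821, in the authors' deposited table. In gut it had 8.07 (3.37 to 12.97), at rank 944 of 6224, in the authors' deposited table, from a second-order polynomial called falling, although the level at 250 was above that of the control. The levels in gut include the pair at 125 with 0 estimated reads, and the part of that pair in the benchmark was not tested. pparab had 18.8 (6.29 to 31.1) in liver with a falling curve, at rank 1044 of 3482, in the authors' deposited table. The median of passing genes was 23.1 in gill, 28.2 in liver and 26.4 in gut, so foxo1a in gill and lpin1 in gut lay well below it, and foxo1a in gut lay near it. lpin1 in liver, pparab in gill and gut, and foxo1a in liver had no row in those tables.

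**Figure D5:**
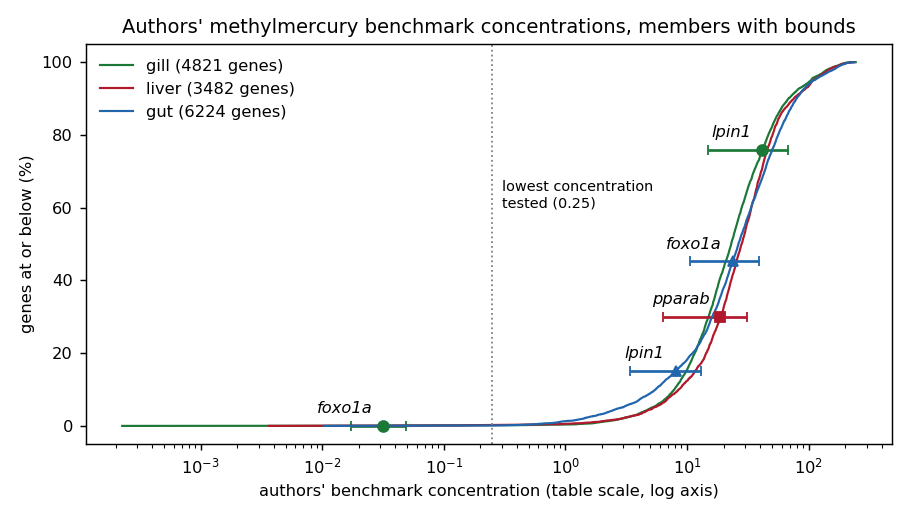
Cumulative share of genes (%) by the authors' methylmercury benchmark concentration (log axis, table scale) in each line, with the values of the 3 genes and their lower and upper bounds; the dotted line marks 0.25, the lowest concentration tested. foxo1a in gill, at 0.0316, lies left of that line, and the other 4 values lie between 8.07 and 41.7.

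Across all 48 group levels of the 6 tables, relative to the median gene and centred within each table, the genes most like foxo1a were LOC110510568 (Pearson r = 0.85), LOC110499140 (0.85), LOC110504871 (0.84), LOC110505538 (0.83) and LOC110498991 (0.83). For lpin1 they were LOC110501040 (0.76), metap1d (0.74), LOC110511741 (0.72), dnajc5gb (0.69) and LOC110506388 (0.69). For pparab they were LOC110511372 (0.62), LOC118965953 (0.59), LOC118938166 (0.57), LOC110532622 (0.51) and elmo2 (0.51). These were the highest of 3606 genes with enough reads in every table, the levels share libraries and scaling, and r is a description. The levels of lpin1 and pparab include groups at 0 estimated reads, whose fitted values are no measured size. In liver at methylmercury 250 the first-named genes stood at 1.18, 0.02 and -0.0023 relative to the median gene. There foxo1a, lpin1 and pparab themselves stood at 1.30, 2.10 and -2.41. Over the fluoxetine groups alone r of the first-named genes was 0.21, -0.18 and 0.56. Between the members r was -0.06 for foxo1a and lpin1, -0.23 for foxo1a and pparab and 0.26 for lpin1 and pparab.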

How the data were processed

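RNA from 69 libraries of 3 trout cell lines was read as paired ends. Per the submitters' processing notes, fastp and Salmon were used; versions and build are not given in the sources used here. The authors deposited log2 fold changes and mean log2 expression per gene, the F statistic (a score) and its p-values for each line and chemical, and tables of benchmark doses with bounds, lack-of-fit p-values and the residual SD as a score. The authors' 12 tables hold groups, not libraries.

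Group levels, moderated variance and SEs were recovered from the deposited values together; recovered control means differed from the deposited ones by less than rounding. Levels equal log2 of reads plus 0.5, scaled per library. In fluoxetine libraries 70.4% to 71.3% of values between 0.5 and 50 reads lay within 0.05 of a whole number. Moderated tests used this variance with Benjamini-Hochberg adjustment over all genes of a table, and fluoxetine trends used limma 3.58.1 in R 4.3.3 on log10 of concentration plus 1.6 ppb. Recovery was tested on simulated data. Groups differing by over 2 SE are said to differ beyond the spread. Symbols came from RefSeq for all IDs. Of 22579 gill, 23203 liver and 21859 gut genes with methylmercury values, 17250, 17806 and 16656 had a locus number only. The gene and marker lists were matched by symbol and leave such genes out. List examples are the 2 genes of the largest mean absolute change among those called in the most lines; other names were added after their values were seen. The members and lists were chosen with earlier results of these data known. Count models were not fitted, since no counts were used here. All floors and depths cover counting error only.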

Additional observations from a re-analysis of the deposited data

Results flagged for a closer look

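foxo1a differed between lines in its response to methylmercury 250. Gut minus liver was 1.46 ± 0.37 (log2 relative to the median gene, SE, n = 2 libraries a group), from 2.76 in gut and 1.30 in liver, and the difference itself passed the moderated test over all shared genes (limma-type, adjusted p = 0.0119), as it did for 21% of those genes. At 125 the difference was 0.91 and did not pass (adjusted p = 0.271 by the same moderated test). Whether the gut and liver values were known when foxo1a was chosen is not recorded.

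lpin1 lay on opposite sides of its control in gill and liver at methylmercury 250. Gill minus liver was -2.77 (log2 relative to the median gene), from -0.67 in gill and 2.10 in liver, and in both lines the pairs at 250 and control could not overlap, as held for 61.2% of gill and 55.1% of liver genes. Relative to the median gene the gill F-test did not call lpin1 (adjusted p = 0.106, limma-type), and against the pair at 0.25 the gill change was -0.15. The difference was not tested.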

How the results depend on the processing

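Of 178 alternatives to the values that answer a comparison, 142 left a tested value with its direction and its side of the threshold, an untested one within 1 SD, or a count within 1.5 times. These include pparab in gill, not called, at 0.0087 relative to the median gene, -0.89 as deposited and -0.25 against 0.25. The tally says little about the methylmercury values, since most of the 142 are fluoxetine trends, which passed in no setting. Among the 178, leaving out the highest fluoxetine concentration was entered both as a leave-one-out and as a setting of its own. The 142 also hold fluoxetine F-test counts that stayed at 0, and benchmark ranks under a filter that removed no passing gene. For the alternatives outside the 142 the cause was not tested. As deposited, without centring on the median gene, the changes at methylmercury 250 were 2.44 for foxo1a in gill, 0.53 for foxo1a in liver (limma-type moderated test, adjusted p = 0.0866), -1.56 for lpin1 in gill, 1.32 for lpin1 in liver, 0.42 for lpin1 in gut and -3.19 for pparab in liver. At 125 in place of 250, relative to the median gene, they were 2.42 for foxo1a in gill, 0.71 for foxo1a in liver (limma-type moderated test, adjusted p = 0.101), 0.87 for lpin1 in liver, -5.59 for lpin1 in gut (a change of sign, fitted at 0 reads and no measured size; with 3 reads per library the change is -2.78 or lower), -2.29 for pparab in gill, -1.50 for pparab in liver and -4.43 for pparab in gut, and gut minus liver for foxo1a was 0.91. Set against 0.25 in place of the control, an alternative added after the data were seen, they were 1.83 for foxo1a in gill, -0.15 for lpin1 in gill and 2.41 for lpin1 in liver.

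The F-test with centred changes called 6272 gill, 4422 liver and 8851 gut genes, against 12826, 10616 and 13852 for the authors' F-test, which called 6468 liver genes at an adjusted p under 0.01. No fluoxetine trend of the 3 genes passed in any of the 13 settings (lowest adjusted p = 0.65, limma), though a trend on concentration itself called 2 gill, 40 liver and 34 gut genes. Some trends smaller than their SE changed sign. For pparab in gill the trend was -0.000466 on the rank of concentration and -0.0015 without the highest concentration. On concentration itself it was 0.20 for foxo1a in liver, 0.0906 for lpin1 in gut and 0.86 for pparab in gut. Leaving out each fluoxetine library in turn gave -0.21 to 0.0931 for pparab in gill, -0.27 to 0.13 for foxo1a in liver, -0.14 to 0.19 for lpin1 in gut and -2.42 to -0.0012 for pparab in gut, where the value nearest 0 came without the library at 200 ppb. Over the fluoxetine groups alone, r of LOC110501040 with lpin1 was -0.18.

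No paired analysis was possible because the tables hold values of groups, without replicate numbers. Leaving out single methylmercury libraries was not run, since the tables give pair means. Few estimated reads limit foxo1a in the gill control (5.31) and pparab in gill at 2.5 and 125 (4 and 3.52). In gut they limit pparab at 125 and 250 (0.617 and 2.54) and lpin1 at 125 (0). The gut pair at 125 had an estimated 9.32 M tabulated reads per library from its pair means, the most of the gut methylmercury groups. The depth of its single libraries is not known. Why lpin1 and pparab were low there was not tested.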
